A study of Mus musculus with 9 samples.

Results

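Oligodendrocytes, the myelinating cells of the spinal cord, are renewed throughout life from dividing precursors, and 8 genes that mark or direct that lineage were followed here: Pdgfra, Olig1, Olig2, Sox10, Gpr17, Lhfpl3, Bcas1 and Nkx2-2. The genes were taken by symbol from the deposited tables. All 8 were found among 34745 genes, and all 8 were among the 17901 genes that passed the filter on low counts. Spinal cord was taken on day 7 from wild-type C57BL/6 mice aged 7 to 9 weeks, with no transgene or other allele named. The 3 groups of 3 libraries each were uninjured controls (titled Control, called sham in the series' design), mice with an injured spinal cord (SCI), and mice that had hyperbaric oxygen after the injury (HBO). Nothing in the labels states that each library is a different animal, so the p-values cover only the spread from library to library. Lesion level and oxygen schedule were not given in the sources used here.

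In the lineage, precursors divide in response to platelet-derived growth factor A, which binds the receptor tyrosine kinase encoded by Pdgfra. Committed precursors then lose Pdgfra, pass through a premyelinating stage at which the G protein-coupled receptor Gpr17 and the cytoplasmic protein Bcas1 are high, and switch on the genes of compact myelin. The basic helix-loop-helix factors Olig1 and Olig2, the high-mobility-group factor Sox10 and the homeodomain factor Nkx2-2 act in the nucleus along this path. Lhfpl3 encodes a tetraspan membrane protein and is used as a precursor marker.

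On GRCm38, Pdgfra lies at chr5:75152292-75198215 and Lhfpl3 at chr5:22746059-23275597, both on the plus strand. Olig2 (chr16:91225550-91228677) and Olig1 (chr16:91269772-91271933) are neighbours on the plus strand, with 41.1 kb between them. Sox10 lies at chr15:79154913-79164490, Bcas1 at chr2:170346991-170427845 and Nkx2-2 at chr2:147177546-147194243, all on the minus strand. Transcripts on the opposite strand share 17.6% of the annotated exon bases of Lhfpl3, 12.6% of Bcas1 (the antisense genes Bcas1os1 and Bcas1os2), 9.67% of Nkx2-2 (Nkx2-2os), 7.26% of Olig1, 6.21% of Pdgfra and 3.62% of Gpr17 (Lims2), in GENCODE M21. Strand use in the counting was not stated in these sources, so reads of such partners cannot be told apart.

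The reference table held a promoter window, from 250 bases before to 50 bases after the annotated start, for 4 of the 8 genes. The windows of 3 genes are shown because these genes took 3 different courses after injury: Pdgfra was higher, Olig2 differed little, and Lhfpl3 was lower without passing the test. They are RefSeq sequences of GRCm38.p6 on the plus strand, at chr5:75152001-75152300, chr16:91225300-91225599 and chr5:22745804-22746103, with searched motifs in capitals.
Pdgfra: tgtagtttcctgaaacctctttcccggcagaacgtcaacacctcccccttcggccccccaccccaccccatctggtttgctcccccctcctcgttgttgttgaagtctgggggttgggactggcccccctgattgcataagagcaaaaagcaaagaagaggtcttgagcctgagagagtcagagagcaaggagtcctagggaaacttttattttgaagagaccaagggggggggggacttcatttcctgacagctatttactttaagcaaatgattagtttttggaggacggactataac
Olig2: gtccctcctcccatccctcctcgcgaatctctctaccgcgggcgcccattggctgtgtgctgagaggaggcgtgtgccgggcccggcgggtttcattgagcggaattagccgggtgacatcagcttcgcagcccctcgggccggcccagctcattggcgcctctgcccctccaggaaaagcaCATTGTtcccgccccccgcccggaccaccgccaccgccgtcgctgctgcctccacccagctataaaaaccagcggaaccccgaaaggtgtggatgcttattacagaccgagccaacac
Lhfpl3: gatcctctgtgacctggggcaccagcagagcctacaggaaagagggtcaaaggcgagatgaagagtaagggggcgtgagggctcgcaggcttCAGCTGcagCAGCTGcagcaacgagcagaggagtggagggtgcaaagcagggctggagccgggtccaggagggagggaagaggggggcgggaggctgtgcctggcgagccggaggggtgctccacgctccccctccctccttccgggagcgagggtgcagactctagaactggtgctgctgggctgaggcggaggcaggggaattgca
The E-box CAGCTG, a sequence of the kind that basic helix-loop-helix factors bind, and the SOX-type cores ACAAAG and ACAATG were searched on both strands. The Lhfpl3 window held CAGCTG at 2 places, the first bases of which lie 158 and 149 bases before the start. The Olig2 window held ACAATG once, on the minus strand, 68 bases before the start, where the printed strand reads CATTGT. None of the 3 motifs was found in the Pdgfra or the Nkx2-2 window. Of 32851 windows of the same length, 16.3% held CAGCTG, 18.7% ACAAAG and 12.6% ACAATG. The Olig2 window had 65% G or C and 25 CpG, the Lhfpl3 window 66% and 12, the Nkx2-2 window 59.7% and 17, and the Pdgfra window 51% and 5, beside medians of 52.7% and 7 over all windows.

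Library totals ran from 11159587 to 15715484 counts, and the 8 genes together took 0.114% to 0.149% of them. Counts of single members ran from 144 for Nkx2-2 to 10071 for Bcas1. Mitochondrially encoded genes took 2.97% to 6.54% of counts, with the highest share in HBO replicate 3. Sham replicate 3 was the highest sham library in Schwann cell genes (summed CPM, counts scaled to library size, of 10 genes 427.7, against 125.5 and 140.6). SCI replicate 1 held most skeletal muscle RNA (summed CPM of 8 muscle genes 583.5, against 8.65 to 103.7 in the other libraries). The central myelin genes that define the tissue were high in every library, with Mbp between 1830 and 3665 CPM.

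The members differed widely in level. Compared per length, as the authors' FPKM (fragment counts scaled by gene length and library size), the sham means were 87.3 ± 4.41 (SD, n = 3) for Bcas1, 78.1 ± 3.44 for Olig1, 42.4 ± 3.29 for Sox10, 24.1 ± 6.33 for Gpr17, 18.2 ± 1.56 for Olig2, 15.7 ± 2.17 for Lhfpl3, 4.97 ± 0.449 for Pdgfra and 3.22 ± 0.442 for Nkx2-2. In sham, the neighbours Gpr17 and Olig2 overlapped in their libraries' FPKM, as did Olig2 and Lhfpl3. The remaining neighbours in that order were apart. In SCI the order of means was the same, with Gpr17 at 43.7 ± 0.965 FPKM now apart from Olig2 at 17.0 ± 0.702, and Pdgfra at 10.5 ± 1.29 overlapping Lhfpl3 at 12.5 ± 1.02. The order also held in HBO, where Olig1 at 57.1 ± 13.3 FPKM overlapped Sox10 at 52.5 ± 6.90, Sox10 overlapped Gpr17, and Lhfpl3 overlapped both Olig2 and Pdgfra.

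The gene length that turns the authors' counts into FPKM differed from the exon bases of GENCODE M21 for several members: 14968 against 10024 bases for Pdgfra, 6832 against 3775 for Bcas1 and 5467 against 3213 for Lhfpl3. With the M21 lengths, Lhfpl3 stood above Gpr17 and Olig2 in sham (26.7, 24.1 and 17.5 FPKM) and above Olig2 in SCI and HBO. Otherwise the order was the same.

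**Figure D1:**
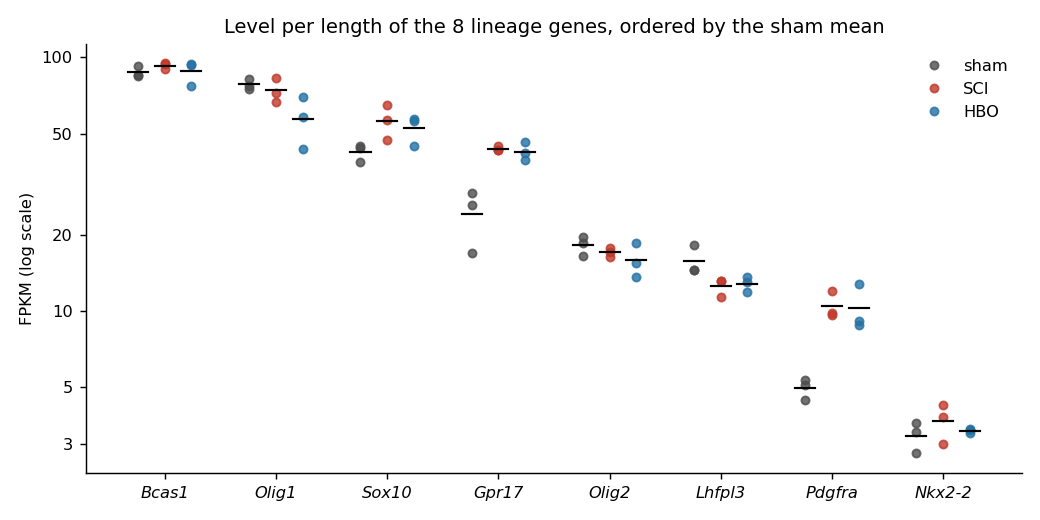
Authors' FPKM (log axis) of the 8 genes in each library of sham, SCI and HBO, with the group mean as a bar and genes ordered by the sham mean. Bcas1 (87.3 FPKM in sham) and Nkx2-2 (3.22) stood at the ends of the order in every group, and Gpr17 and Pdgfra were higher in both injured groups than in sham.

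The comparison of SCI with sham asks which lineage genes differ in the injured cord. Pdgfra, Gpr17 and Sox10 rose, no member fell by the test, and Olig1, Olig2, Bcas1 and Nkx2-2 gave overlapping groups. With edgeR's quasi-likelihood test and Benjamini-Hochberg adjustment over all genes, 3 of 8 members (37.5%) passed an adjusted p of 0.05, all 3 higher in SCI, beside 36.6% of all genes tested (20% higher and 16.6% lower). The share of members is close to that background. In 3 members every SCI library lay above every sham library and in 1, Lhfpl3, every one lay below, beside 27.6% and 26.3% of all genes and 54% in either direction.

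Pdgfra, the receptor of precursors, measured 67.3, 78.5 and 76.3 CPM in the sham libraries and 183.8, 144.1 and 145.0 in SCI. The lowest SCI library was well above the highest sham library, and the group means were 74.0 ± 5.95 and 157.6 ± 22.7 CPM (SD, n = 3). Its log2 fold change was 1.09 ± 0.15 (SE), a 2.13-fold rise, with an adjusted p of 0.000967 (edgeR).

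Gpr17, the receptor of the premyelinating stage (chr18:31942997-31949636, minus strand), measured 88.6, 133.5 and 151.2 CPM in sham and 230.1, 222.5 and 230.0 in SCI. The sham libraries were spread widely and the SCI libraries lay close together above all of them. The log2 fold change was 0.87 ± 0.17, a 1.83-fold rise, with an adjusted p of 0.00354 (edgeR). Pdgfra and Gpr17 passed the test in all 15 alternative analyses of this comparison.

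Sox10, which drives myelin genes and is made by all cells of the lineage and by Schwann cells, measured 105.3, 118.6 and 119.5 CPM in sham and 131.1, 174.7 and 151.9 in SCI. The groups did not overlap, and sham replicate 3 and SCI replicate 1 came closest. The log2 fold change was 0.41 ± 0.14, a 1.33-fold rise, with an adjusted p of 0.0408 (edgeR). The call held in 6 of 15 alternatives. It was lost without any single sham library (adjusted p 0.139, 0.0787 and 0.0726 without replicates 1, 2 and 3), without SCI replicate 2 (0.148) or 3 (0.0806), with limma on FPKM (0.0564), with upper-quartile scaling (0.0667), with a replicate block (0.0743) and without SCI replicate 1 and sham replicate 3 together (0.0531).

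Lhfpl3 measured 79.4, 97.7 and 78.8 CPM in sham and 63.4, 71.1 and 70.7 in SCI, so all 3 SCI libraries were below all 3 sham libraries. The log2 fold change was -0.32 ± 0.12 with an adjusted p of 0.0571 (edgeR), which did not pass. It passed with DESeq2 (adjusted p 0.0494) and with upper-quartile scaling (0.0362), and in none of the other 13 alternatives.

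The other nuclear factors and Bcas1 gave no call. Olig1 measured 167.6, 159.8 and 177.0 CPM in sham and 160.7, 143.7 and 177.2 in SCI, with a log2 fold change of -0.07 (95% interval -0.41 to 0.27, adjusted p 0.769 by edgeR). Its neighbour Olig2, which specifies the lineage in the ventral cord, measured 45.3, 39.4 and 47.6 CPM in sham and 42.7, 39.4 and 42.6 in SCI, with a log2 fold change of -0.09 (-0.37 to 0.20, adjusted p 0.644). Both overlapped between the groups. Bcas1 measured 578.0, 572.8 and 630.4 CPM in sham and 657.1, 609.3 and 638.4 in SCI, with a log2 fold change of 0.10 (-0.17 to 0.37, adjusted p 0.575). Nkx2-2, the least abundant member, measured 14.1, 12.7 and 10.7 CPM in sham and 11.9, 16.5 and 14.6 in SCI, with a log2 fold change of 0.20 (-0.16 to 0.56, adjusted p 0.368). Together the intervals of these 4 genes reach from -0.41 to 0.56 on the log2 scale, short of the fitted rise of Pdgfra (1.09) or Gpr17 (0.87). The interval of Pdgfra began at 0.75, above that range, but that of Gpr17 began at 0.50, inside it. The fitted rise of Sox10 (0.41) also lay inside it.

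**Figure D2:**
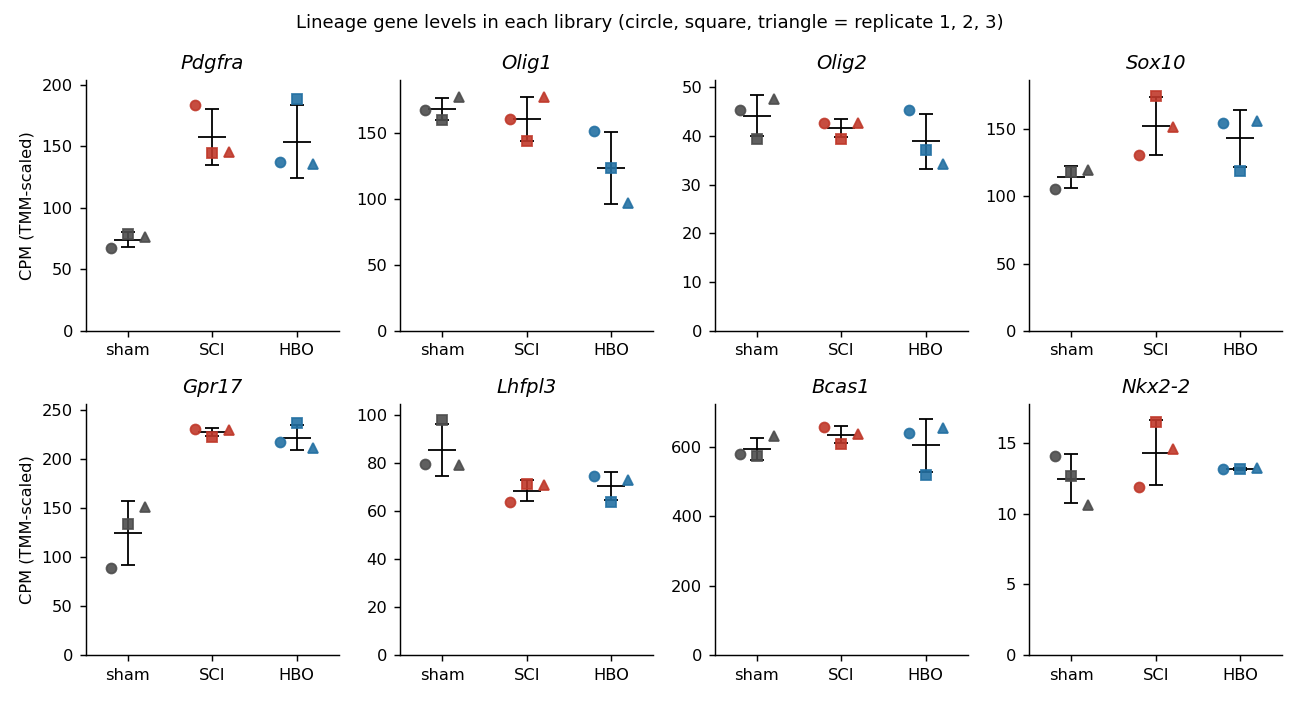
CPM of each of the 8 genes in the 9 libraries (symbols mark replicates 1, 2 and 3), with the group mean as a bar and 1 SD as whiskers, on axes that start at 0. The SCI and HBO libraries of Pdgfra (135.6 to 188.2 CPM) and Gpr17 (211.6 to 236.4 CPM) all lay above the sham libraries, while Olig2 and Bcas1 overlapped in all 3 groups.

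Within a library, 1 member can be set against another without regard to scaling. The log2 ratio of Pdgfra to Olig2 counts was 0.75 ± 0.22 in sham and 1.91 ± 0.17 in SCI (SD, n = 3), and the ratio of Sox10 to Olig2 was 1.38 ± 0.19 and 1.87 ± 0.27. In both ratios every SCI library lay above every sham library. The ratio of Bcas1 to Olig2 also did not overlap, at 3.75 ± 0.096 and 3.93 ± 0.023. All 3 ratios have Olig2 as denominator, so they are not independent of each other. The exact two-sided permutation p was 0.1 for each of these 3, the smallest that 3 against 3 libraries allow, and 0.24 after adjustment over 12 such tests. Gpr17 to Pdgfra overlapped, at 0.72 ± 0.30 and 0.54 ± 0.19, with an exact p of 0.4. In HBO the ratios of Pdgfra and Sox10 to Olig2 were also apart from sham. Those of Bcas1 to Olig2 (exact permutation p 0.3) and Gpr17 to Pdgfra (0.4) overlapped it.

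The comparison of HBO with SCI asks whether oxygen treatment alters the lineage genes after injury. No member passed the test: it was 0 of 8, beside 0% of all genes tested, where the lowest adjusted p was 0.806 (edgeR). At an unadjusted p under 0.05 there was 1 member, Olig1, beside 4.18% of all genes. DESeq2 called 22 genes and none of the members. No member's groups were apart, beside 8.03% of all genes. The fitted log2 fold change was below 0 for 7 of 8 members, beside 50.5% of all genes, with a median of -0.08. Only Lhfpl3, at 0.04, was above 0, and it was below 0 without SCI replicate 1 or HBO replicate 1. These signs were not stable. Over the 15 alternatives Pdgfra reached 0.17, Bcas1 0.029, Sox10 0.028, Olig2 0.0077 and Gpr17 0.0032. Only Olig1 and Nkx2-2 stayed below 0 in all of them.

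Pdgfra measured 137.1, 188.2 and 135.6 CPM in HBO, overlapping SCI, with a log2 fold change of -0.04 (95% interval -0.37 to 0.30). Gpr17 measured 217.1, 236.4 and 211.6 CPM, with a log2 fold change of -0.04 (-0.41 to 0.33). Sox10 measured 155.0, 119.1 and 156.4 CPM, with a log2 fold change of -0.09 (-0.40 to 0.22). For these 3 members the intervals reach down to -0.41 and up to 0.33 on the log2 scale.

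Olig1, a factor needed for remyelination in mice, had the largest fitted difference of the 8 genes. It measured 151.4, 123.2 and 96.7 CPM in HBO against 160.7, 143.7 and 177.2 in SCI. HBO replicate 1 lay inside the SCI range and the other two HBO libraries below it, with the lowest value in replicate 3, the library with the highest mitochondrial share. The log2 fold change was -0.38 ± 0.15 with an unadjusted p of 0.0344 and an adjusted p of 0.959 (edgeR). It was -0.23 without HBO replicate 3 and -0.55 without HBO replicate 1, with adjusted p from 0.435 to 1 over the 15 alternatives. Olig2 was also lowest in that library, at 45.3, 37.2 and 34.2 CPM in HBO, with a log2 fold change of -0.10 (-0.39 to 0.19). Lhfpl3 measured 74.6, 63.8 and 73.0 CPM, Bcas1 641.1, 517.5 and 655.8, and Nkx2-2 13.2 in all 3 HBO libraries, and all 3 genes overlapped SCI.

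HBO was also compared with sham, which shares the sham libraries with the first comparison, so the 2 sets of values are not independent. Pdgfra rose by 1.05 ± 0.15 on the log2 scale (adjusted p 0.00139, edgeR) and Gpr17 by 0.83 ± 0.17 (0.00561), both in all 15 alternatives. These were 2 of 8 members, both higher, beside 30.9% of all genes tested (17.4% higher and 13.5% lower). Groups were apart for 2 members above sham and 2 below, beside 24.2% and 23% of all genes and 47.2% in either direction. Sox10 did not pass here (0.33 ± 0.14, adjusted p 0.104), and HBO replicate 2 at 119.1 CPM lay inside the sham range. It passed without that library (0.44, adjusted p 0.0475). Every HBO library of Olig1 lay below every sham library, at a log2 fold change of -0.44 ± 0.15 and an adjusted p of 0.0518. That gene passed in 5 of 15 alternatives, among them DESeq2 (0.0313) and the fit without HBO replicate 1 (0.0107), and reached 0.140 without HBO replicate 3. Lhfpl3 was also apart from sham (-0.28 ± 0.12, adjusted p 0.103).

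**Figure D3:**
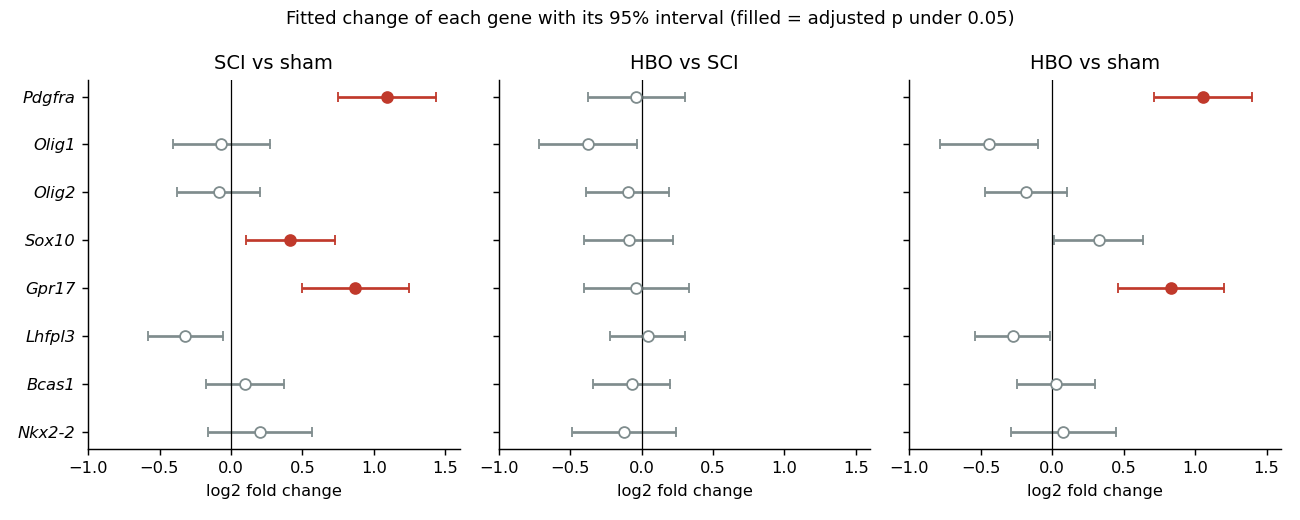
Fitted log2 fold change of each gene in the 3 comparisons, with the 95% interval as whiskers and filled points for an adjusted p under 0.05. Pdgfra (1.09 and 1.05) and Gpr17 (0.87 and 0.83) were filled in both comparisons with sham, Sox10 (0.41) in SCI vs sham, and no gene in HBO vs SCI.

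Other markers of the precursor stage moved in both directions after injury. Of 14 such genes, 7 rose and 3 fell in SCI against sham, beside 20% higher and 16.6% lower of all genes. Their median log2 fold change was 0.36, beside 0.00 over all genes. Vcan, a chondroitin sulfate proteoglycan, rose by 1.46 ± 0.20 (adjusted p 0.00086), Matn4, a matrix protein, by 1.26 ± 0.22 (0.00256) and Cspg4, the NG2 proteoglycan of precursors and pericytes, by 1.06 ± 0.17 (0.00171; edgeR). Lhfpl4, a relative of Lhfpl3 that organises inhibitory synapses in neurons (-0.74 ± 0.18), the proteoglycan Cspg5 (-0.49 ± 0.13) and the cadherin Pcdh15 (-0.56 ± 0.19) fell. Without SCI replicate 1 and sham replicate 3 together the count was 4 higher and 1 lower, and the lower count was also 1 without sham replicate 1 or SCI replicate 1 alone. Cspg4 measured 64.1, 71.7 and 70.7 CPM in sham, then 185.3, 133.5 and 112.0 after injury, then 108.7, 110.6 and 90.4 with oxygen, highest in SCI replicate 1.

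By fitted value, 12 of 12 genes of committed and premyelinating cells were higher in SCI, beside 50.3% of all genes. By the test 9 of 12 rose and none fell, beside 20% and 16.6% of all genes. The median was 0.85, beside 0.00 over all genes. Each alternative gave 7 to 9 calls. Tns3, a focal adhesion protein, measured 208.0, 252.7 and 289.4 CPM in sham and 502.1, 459.0 and 457.4 in SCI, a rise of 0.92 ± 0.13 (adjusted p 0.00101). Enpp6, a choline phosphodiesterase of newly forming oligodendrocytes, rose by 0.64 ± 0.13 (0.0044), Tcf7l2, a transcription factor of the Wnt pathway, by 0.88 ± 0.16 (0.00246) and Bmp4, a secreted growth factor, by 1.37 ± 0.38 (0.0181; edgeR). Sox4 had the largest rise, 1.45 ± 0.18, but 54.6% of its exon bases are shared with a transcript on the opposite strand. Several of these genes, Sox4 and Bmp4 among them, are also made outside the lineage.

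Regulators of maturation and myelin genes were counted in the same comparison. Of 14 transcriptional regulators of maturation 3 rose (Chd7, Zeb2 and Zfp488) and none fell, beside 20% and 16.6% of all genes. The list's median log2 fold change was 0.08. Myrf, the factor that switches on myelin genes, measured 262.6, 298.2 and 326.6 CPM in sham and 300.1, 300.2 and 327.7 in SCI (0.06 ± 0.13, adjusted p 0.738). Zeb2 is also made by microglia and macrophages. Of 15 myelin and mature cell genes, Opalin (-1.17 ± 0.20, adjusted p 0.00207), Aspa (-0.75 ± 0.20, 0.0151) and Mog (-0.49 ± 0.14, 0.021) fell, and the protease Klk6 rose (0.60 ± 0.20, 0.0407), against the same background and with a median of -0.10. The number that fell was 1 without sham replicate 2 or SCI replicate 1. The call of Klk6 was lost in 7 alternatives, each single SCI library among them. Opalin, a membrane protein of mature oligodendrocytes, measured 44.3, 55.9 and 37.6 CPM in sham, then 17.5, 25.0 and 18.6 after injury, then 38.9, 30.4 and 27.4 with oxygen.

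Signals that act on precursors were counted the same way, beside the 20% of all genes called higher and 16.6% called lower in SCI. Of 6 other members of the PDGF family 4 rose: Pdgfrl (2.46 ± 0.23), the receptor of pericytes and fibroblasts Pdgfrb (1.59 ± 0.19), and the ligands Pdgfc (1.37 ± 0.28) and Pdgfb (0.73 ± 0.16), with adjusted p from 0.000516 to 0.00644 (edgeR). Pdgfa, the ligand of precursors, measured 27.5, 28.8 and 31.6 CPM in sham and 34.0, 33.7 and 35.1 in SCI (0.23 ± 0.12, adjusted p 0.166). Of 13 inhibitors of differentiation the Notch ligand Jag1 (1.30 ± 0.23) and the receptor Notch1 (0.68 ± 0.12) rose, and Gpr37, Gsk3b and Lingo1 fell. These 2 rises and 3 falls are together close to the share of all genes. Without SCI replicate 1 and sham replicate 3 together the 3 falls came to 1 call. Of 16 other growth signals and receptors 6 rose, led by Igf1 (3.12 ± 0.40) and the chemokine receptor Cxcr4 (2.28 ± 0.26), which immune cells also make, and 4 fell. Those 4 calls came to 1 without sham replicate 1, sham replicate 3, SCI replicate 1 or SCI replicate 2, and to 0 without SCI replicate 1 and sham replicate 3 together.

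No gene of these lists passed in HBO against SCI. By value, 10 of 12 genes of committed cells were lower in HBO, beside 50.5% of all genes, and in 4 of them (Tns3, Frmd4a, Kif19a and Tcf7l2) every HBO library lay below every SCI library, beside 4.07% of all genes. Their summed CPM was 1430 to 1478 in SCI and 1195 to 1291 in HBO, and 781.7 to 982.0 in sham. The most abundant genes weigh most in this sum. Mean CPM in SCI and HBO was 472.8 and 394.9 for Tns3, and 326.2 and 264.5 for Frmd4a. The 14 other precursor markers summed to 1658 to 1762 CPM in SCI and 1534 to 1626 in HBO, with 5 of 14 genes apart and lower beside the same background, Cspg4 among them (-0.48 ± 0.17, adjusted p 0.959). The myelin genes lay the other way, with 12 of 15 higher in HBO by value and 1 apart, Opalin (0.66 ± 0.20, adjusted p 0.959), beside 3.96% of all genes. Lists of other cells, with no gene passing either, also lay mostly to one side by value: 11 of 12 cell division genes were lower in HBO (median -0.43), as were 7 of 8 pericyte and smooth muscle genes (-0.31, Cspg4 counted again) and 8 of 8 skeletal muscle genes (-1.94), while 9 of 10 neuron markers were higher (0.20). Their part in the values of the lineage lists was not tested.

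**Figure D4:**
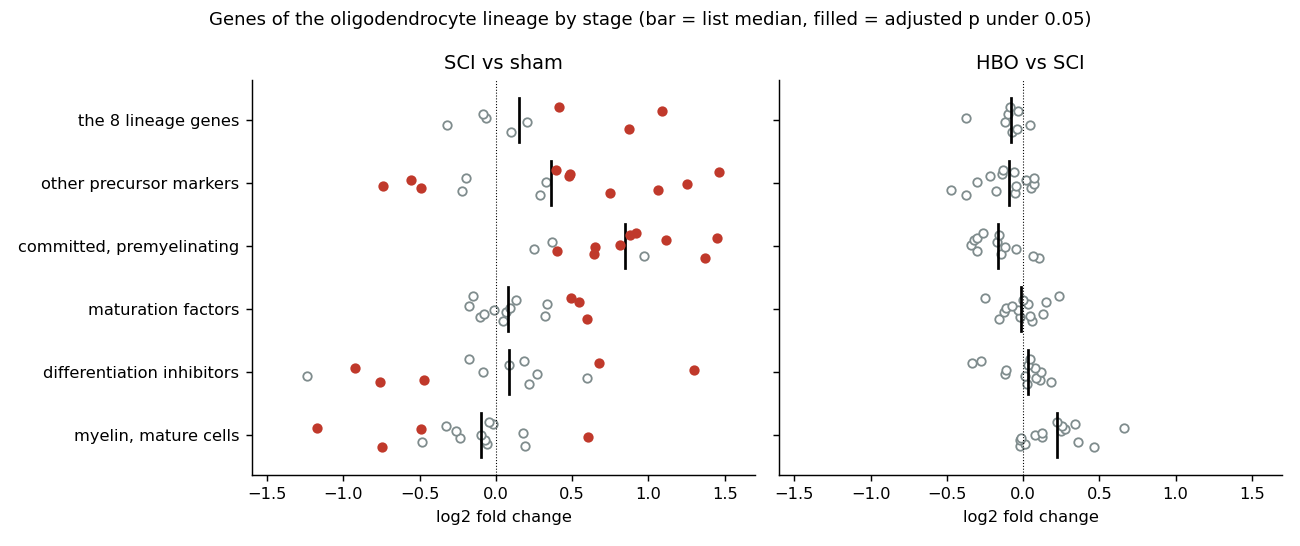
Fitted log2 fold change of every gene in 6 lists of the lineage, in SCI vs sham and in HBO vs SCI; a bar marks each list's median and filled points an adjusted p under 0.05. In SCI vs sham the committed and premyelinating genes have the highest median (0.85) and the myelin genes the lowest (-0.10); in HBO vs SCI no point is filled.

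Other cells that make these genes also differed between the groups. In bulk tissue, more cells of a type and more RNA per cell cannot be told apart. Pdgfra is also a gene of fibroblasts, and all 10 fibroblast markers rose in SCI (median log2 fold change 3.90), beside 20% of all genes. Their summed CPM was 163.6 to 534.8 in sham, 10704, 8000 and 4457 in the SCI libraries and 5527, 11272 and 7681 in HBO. SCI replicate 1 and HBO replicate 2, the libraries with the highest Pdgfra, were also the highest in these genes. The other injured libraries did not follow the order of the sum. Pdgfra measured 145.0 CPM in SCI replicate 3 (sum 4457) and 137.1 in HBO replicate 1 (5527). It measured 135.6 in HBO replicate 3 (7681) and 144.1 in SCI replicate 2 (8000). The part of fibroblasts in the rise of Pdgfra was not tested. Gpr17 measured 230.0 CPM in SCI replicate 3, the injured library with the lowest fibroblast sum, and 230.1 and 236.4 CPM in the pair with the highest. In SCI replicate 2 and HBO replicates 1 and 3 it measured 222.5, 217.1 and 211.6 CPM.

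Sox10 and 10 Schwann cell markers were compared likewise. Of these markers 6 rose in SCI (3 without sham replicate 1), beside 20% of all genes. The sum of all 10 was 125.5, 140.6 and 427.7 CPM in sham, then 690.3, 1395 and 664.2 after injury, then 895.7, 1246 and 825.9 with oxygen. Dhh, a signal secreted by Schwann cells, was at 0 in sham replicate 2, and Pmp2, another of the 10, in sham replicates 1 and 2. SCI replicate 2 was highest both in Sox10 and in this sum, whereas HBO replicate 2, the second in the sum, had a Sox10 level of 119.1 CPM, close to sham. The part of Schwann cells in the Sox10 difference was not tested.

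**Figure D5:**
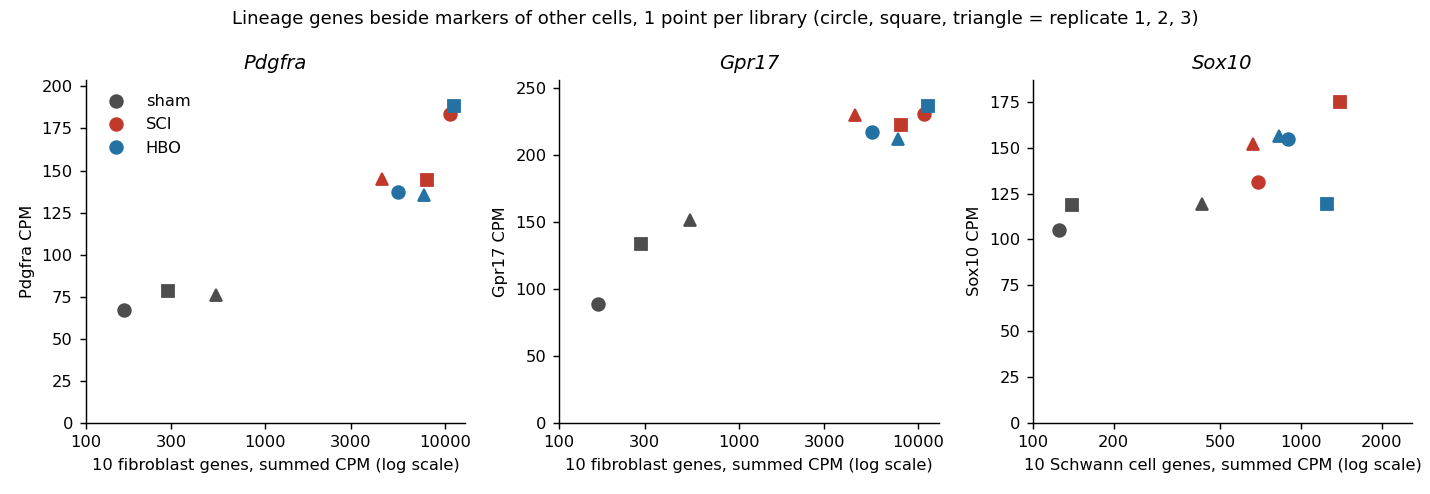
CPM of Pdgfra and Gpr17 against the summed CPM of 10 fibroblast genes, and of Sox10 against that of 10 Schwann cell genes (log axes), 1 point per library. For Pdgfra the sham libraries (163.6 to 534.8 summed CPM) and the injured ones (4457 to 11272) form separate clusters, so no correlation is given.

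The remaining marker lists were counted likewise, beside 20% of all genes higher and 16.6% lower in SCI. All 12 cell division genes rose, from a sum of 67.4 to 85.8 CPM in sham to 212.0 to 439.4 in SCI, and stood at 182.4 to 322.9 in HBO; in which cells was not measured. All 10 neuron markers fell (6 without SCI replicate 1 and sham replicate 3 together), and 7 of 9 microglia and macrophage markers rose. Of 8 astrocyte markers 2 rose and 1 fell, close to that background. The fall was lost without replicate 1 or 2 of either group. Of 8 skeletal muscle genes 7 rose, a count of 1 to 3 without SCI replicate 1 or any single sham library. Of 8 pericyte and smooth muscle genes, among which Cspg4 is counted again, 5 rose, and 3 without SCI replicate 1 and sham replicate 3 together. Their part in the levels of the 8 lineage genes was not tested.

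The 8 members were finally set against each other and against 12455 other genes with a mean of 5 CPM or more, by the root mean square difference of log2 CPM over 9 libraries after centring each gene. A value of 0 would mean the same profile. Olig1 and Olig2 were the closest pair of members at 0.16 log2 units, as were Olig2 and Bcas1, and Pdgfra and Gpr17 differed by 0.20, while Pdgfra and Olig1 were the furthest apart at 0.68. Genes that vary little are close by this measure whatever their profile. Around their own means Olig2 and Bcas1 spread by only 0.14 and 0.11, Olig1 by 0.27, Gpr17 by 0.46 and Pdgfra by 0.53. The gene nearest to Pdgfra was Rap2b, a small GTPase of the RAS family, at 0.060, with 31.0 to 36.3 CPM in sham and 56.2 to 82.8 in the injured groups, followed by Arap1 at 0.073. Nearest to Gpr17 was the complement gene C4b at 0.074, followed by Marcksl1 at 0.080, and nearest to Sox10 were Cyp39a1 at 0.088 and Cebpzos at 0.097. Olig1 was nearest to B9d2 and Fam181b (0.089 and 0.090), both also lowest in HBO replicate 3, and Olig2 to Cdr2l and Mcu (0.041 and 0.061). Lhfpl3 was nearest to Phyhipl and Mkrn2 (0.041 and 0.044), Bcas1 to Pnrc1 and Ppm1d (0.066 and 0.070), and Nkx2-2 to Cox17 and Fam207a (0.074 and 0.093).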

How the data were processed

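Per the labels' protocols RNA was extracted with Trizol. Per the submitters' processing notes the aligner was HISAT2 and the build GRCm38 (mm10). The counting tool, its strand setting and the annotation release were not stated in these sources. The tables deposited by the authors give raw counts and FPKM for 34745 genes per library. FPKM served for levels between genes and for an alternative test. Coordinates are those of the files, exon overlaps come from GENCODE M21 and promoter windows from RefSeq (GRCm38.p6).

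The main test ran on counts in edgeR 4.0.16 (R 4.3.3), with filterByExpr (17901 genes kept), TMM scaling and glmQLFit with 1 mean per group over all 9 libraries. Contrasts were tested with glmQLFTest and called at a Benjamini-Hochberg adjusted p under 0.05. SE is the size of a log2 fold change over the square root of its F statistic. CPM use TMM-scaled library sizes. The fit was also run on simulated counts in which only a small share of genes changed, unlike SCI vs sham. Nothing is concluded from that run here. Alternatives used DESeq2 1.42.0, limma 3.58.1 on log2(FPKM + 0.1), other scalings and filters, a replicate block, and each library left out.

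Named genes are the 8 members, the 3 genes of lowest p in each list for SCI vs sham, a short panel, and for each member the 2 genes most like it. Other genes of a list were named after their values were seen. The members and lists were chosen with earlier results of these data known. Some single-gene results are not reported here.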

Additional observations from a re-analysis of the deposited data

How the results depend on the processing

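For the 8 genes, 108 of 120 values in SCI vs sham kept their direction and side of the threshold over 15 alternatives, 9 lost a call (all Sox10), 2 gained one (both Lhfpl3) and 1 reversed. In HBO vs SCI 108 stayed and 12 reversed, and in HBO vs sham 108 stayed, 6 gained a call (5 of Olig1, 1 of Sox10) and 6 reversed. Every reversal was of a value that was not called. Leaving out a pair of libraries was chosen after seeing the data.

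With a library left out, Olig1 ran from -0.14 to 0.0075 on the log2 scale in SCI vs sham. In HBO vs SCI, Pdgfra ran from -0.21 to 0.091, Lhfpl3 from -0.0059 to 0.11, Sox10 from -0.18 to 0.028 and Bcas1 from -0.13 to 0.029. In HBO vs sham, Bcas1 ran from -0.035 to 0.13 and Nkx2-2 from -0.025 to 0.18. Without SCI replicate 1 and HBO replicate 3 together, HBO vs SCI came to 0.17 for Pdgfra, 0.0077 for Olig2, 0.0032 for Gpr17 and -0.034 for Lhfpl3. In HBO vs sham, Bcas1 was -0.026 with upper-quartile factors, and Nkx2-2 -0.028 without HBO replicate 3 and sham replicate 3 together. The cause was not tested.

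The number of genes called in SCI vs sham was 6545, 4316 to 5913 with a library left out, and 3616 without SCI replicate 1 and sham replicate 3. For HBO vs SCI it was 0, 0 to 4 with a library left out, 22 with DESeq2, and 3 without SCI replicate 1 and HBO replicate 3. For HBO vs sham it was 5530, 3053 to 5777 with a library left out, and 3321 without HBO replicate 3 and sham replicate 3. These fits hold fewer libraries. Members called were 2 or 3, 0, and 2 or 3 with a library left out.

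With a library left out, the HBO minus SCI log2 ratios ran from -0.10 to 0.11 for Gpr17 to Pdgfra, -0.14 to 0.16 for Sox10 to Olig2, -0.12 to 0.25 for Pdgfra to Olig2 and -0.12 to 0.11 for Bcas1 to Olig2. Against sham, no ratio changed sign in SCI or HBO.

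Same-numbered libraries did not deviate together (correlations from -0.18 to 0.14), so the numbers were not taken as pairs. With a replicate block 5592 genes were called in SCI vs sham, 0 in HBO vs SCI and 4459 in HBO vs sham, and 2, 0 and 2 members, where Sox10 lost its call (adjusted p 0.0743). Other scalings moved the median of all genes by at most 0.05 on the log2 scale. The lowest counts behind a member were those of Nkx2-2, at 144 to 238 per library.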
